A study of Mus musculus with 88 samples.

Results

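The mPFC is a cortical region that takes part in the appraisal of threat and in social behaviour, and repeated social defeat is widely used in mice as a model of psychosocial stress. In chronic social defeat stress (CSDS) a male mouse is attacked day after day by an aggressive CD1 male and lives beside it behind a perforated wall. Defeated mice were then tested for social avoidance, and those that approached a new CD1 mouse like their controls were called resilient, while those that stayed away were called susceptible. The comparison described here was between the mPFC of susceptible and of resilient B6 mice, all of which had been through CSDS. It thus sets mice that behaved differently after defeat against each other, not stressed against unstressed mice. Whether a difference was present before defeat was not tested. Below, rose and fell mean higher and lower in susceptible than in resilient mice. The comparison rested on 12 of the 88 libraries of the series, 6 from susceptible and 6 from resilient mice, each from a single mouse. The members were all samples labelled as defeated mPFC of strain C57BL/6Crl, divided by the labelled phenotype.

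All of these mice were males of the C57BL/6Crl strain, 8 weeks old at dissection, and the tissue was taken 6-8 days after the last defeat. Unstressed B6 controls (6 mice) had neither defeat nor aggressor, and DBA/2Crl controls (6 mice) and susceptible DBA/2Crl mice (8 mice) made up the rest of the 32 mPFC libraries. Dissected mPFC is bulk tissue and holds neurons, glia, vessels and meninges together. Markers of cortical excitatory neurons were present in all 12 libraries, with Slc17a7 between 7.31 and 8.04 log2 CPM and Neurod6 between 5.89 and 7.30 log2 CPM.

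Some features of the 18 B6 libraries bear on every result. In a principal component analysis, susceptible replicate 4 lay apart from the others on the first component, which held 26.4% of the variance, at -50.3 against -16.2 to 30.3 for the remaining 17 mice. Genes of neighbouring regions also varied between mice. The olfactory bulb list summed to 118-583 CPM in susceptible and 132-243 CPM in resilient mice, and the striatal medium spiny neuron list to 382-531 CPM and 494-1005 CPM. The IDs in the sample titles begin with C1, C2, C5 or C7, and the sources used here do not say what this prefix stands for. Of the susceptible mice 5 had C7 and 1 had C5, while of the resilient mice 1 had C1, 3 had C2 and 2 had C5. Among the controls, 2 had C1, 3 had C2 and 1 had C7. Phenotype and prefix were therefore confounded, and only C5 held mice of both phenotypes.

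Susceptible and resilient mice differed in 383 of 18946 genes at an adjusted p below 0.05 (limma), which is 2.02% of the genes tested. Of these, 160 genes (0.845%) were higher and 223 (1.177%) lower in susceptible mice. The differences were mostly small. The median log2 difference was 0.34 among the higher and -0.32 among the lower genes, and it reached 1 in size in only 1 of the higher and 10 of the lower genes. The median over all genes was -0.0022. The values of the 6 susceptible and the 6 resilient mice did not overlap for 319 genes (1.68% of those tested), and 64 of the higher and 87 of the lower genes were among them. At an unadjusted p below 0.05, 3719 genes (19.6%) differed, 1751 of them higher (9.24%) and 1968 lower (10.4%).

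The number of genes called depended strongly on which mice and terms were in the fit. The pooled spread of all 32 libraries gave the 383 calls. A fit of the 12 mice alone called 26 genes, and a fit of the 18 B6 mice called none with limma, although 3470 genes had an unadjusted p below 0.05. Leaving out susceptible replicate 5 left 4 calls (mt-Nd3, Plagl2, Gm15361 and Gm5739, of which Gm15361 was named after its value was seen). Without resilient replicates 2, 3 and 4 there were 8, 12 and 20 calls, and without susceptible replicates 2 and 6 there were 26 and 32. Without resilient replicate 1 there were 179 calls and without susceptible replicate 4 there were 198, whereas 593 were called without resilient replicate 5 and 839 without susceptible replicate 1. Without resilient replicate 6 and susceptible replicate 3 there were 298 and 474 calls. When the prefix of the mouse ID entered the fit as a covariate, no gene was called by limma, and 865 genes had an unadjusted p below 0.05.

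**Figure D1:**
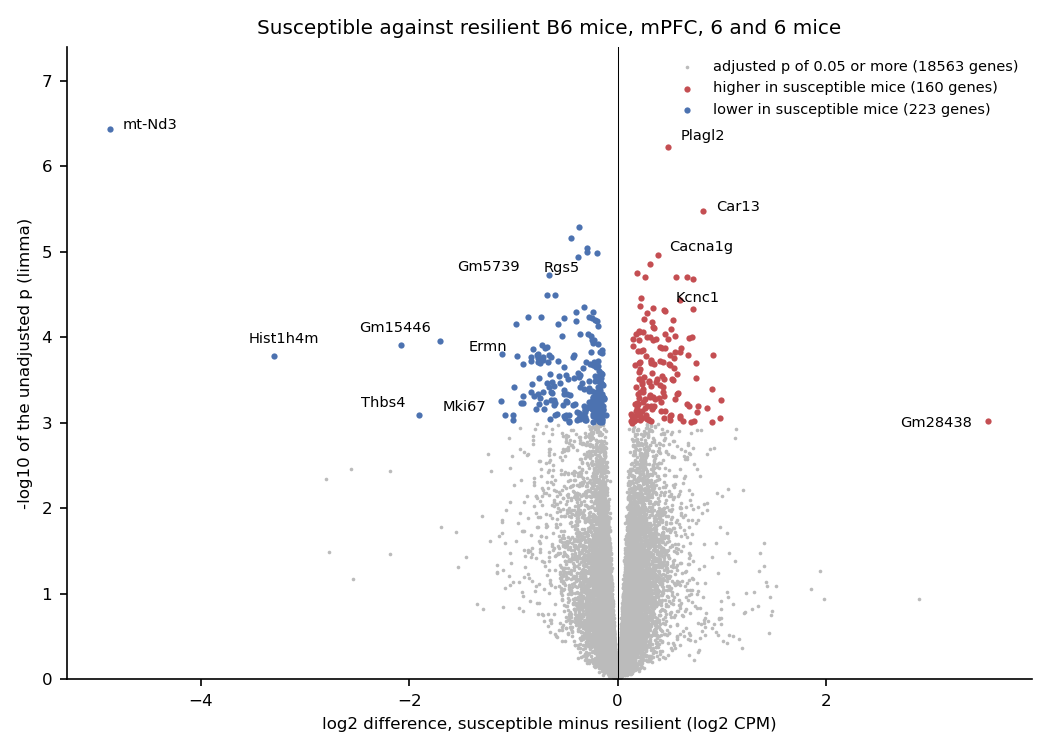
Each point is a gene of the mPFC table. The x axis gives the log2 difference between 6 susceptible and 6 resilient B6 mice and the y axis -log10 of limma's unadjusted p. Coloured points are the 160 higher and 223 lower genes. Most of them lie within 1 log2 unit of 0, and mt-Nd3 (-4.87) and Gm28438 (3.56) lie farthest out.

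Of the 36 gene lists, that of mature oligodendrocytes had the most called members, and all of them were lower in susceptible mice. Oligodendrocytes wrap axons in myelin, a stack of membrane held together by a small set of abundant proteins, and in the prefrontal cortex myelination goes on into adult life. A list of 25 genes of mature oligodendrocytes and myelin was measured in full. All 25 log2 differences were below 0, as were 50.6% of all genes, and 15 of the 25 fell past the adjusted threshold (background of lower genes 1.177%), while none rose. At the unadjusted level 24 of the 25 were lower, against 10.4% of all genes. The median log2 difference of the list was -0.65, against -0.0022 for all genes, and its members ranged from -0.90 to -0.22. The calls rested on single mice. None was left without resilient replicate 2, 3 or 4 or without susceptible replicate 2, 5 or 6, with 23 or 24 genes lower at the unadjusted level each time (limma), 5 were left without resilient replicate 1 and 3 without susceptible replicate 4. The median stayed between -0.74 and -0.57. In bulk tissue, fewer oligodendrocytes and less of these RNAs per cell cannot be told apart.

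Among the proteins of compact myelin, Mbp, which holds the inner faces of the myelin membrane together, lay at 8.55, 8.73 and 9.17 log2 CPM in susceptible mice (lowest, median and highest) and at 9.12, 9.55 and 9.83 log2 CPM in resilient mice. The ranges touched only where the highest susceptible mouse met the lowest resilient ones. Mbp fell by 0.72 on the log2 scale (SE 0.17, adjusted p = 0.0306, limma), that is to 0.608 of the resilient level. Mobp, another basic protein of myelin, lay at 7.83, 8.136 and 8.74 log2 CPM against 8.46, 9.11 and 9.43 log2 CPM. It fell by 0.83 (SE 0.21, adjusted p = 0.0404, limma). For Mobp only the C5 susceptible mouse reached into the resilient range.

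Genes of the myelin sheath's cell biology followed the same direction. Ermn, a cytoskeletal protein of late myelination, lay at 5.21, 5.49 and 5.94 log2 CPM in susceptible and 5.90, 6.45 and 6.64 log2 CPM in resilient mice, and fell by 0.83 (SE 0.19, adjusted p = 0.0306, limma). Mag, an adhesion molecule of the membrane next to the axon, fell by 0.74 and Mal, a proteolipid of myelin vesicles, by 0.75 on the log2 scale. Hapln2, a link protein of the nodes of Ranvier, lay at 2.06-2.53 against 2.69-3.34 log2 CPM, and with Gpr37 and Sept4 it was one of 3 called members whose groups did not overlap. Further called members were Adamts4, Sept4, Tspan2, Plekhb1, Trf, Ugt8a, Gpr37 and Gjb1, with log2 differences between -0.75 and -0.36. Opalin had the lowest value of the list, -0.90, with an adjusted p of 0.0646 (limma), and Cnp lay at -0.63 (adjusted p = 0.0537, limma). Opalin, Cnp, Sept4, Tspan2, Plekhb1, Trf, Ugt8a and Gpr37 were named after their values were seen.

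Precursors of these cells moved less. Of 16 genes of oligodendrocyte precursors and premyelinating cells, 1 fell and none rose (background of lower genes 1.177%), and the median was -0.13. That gene was Enpp6, a choline phosphodiesterase of newly formed oligodendrocytes, which fell by 0.65. Pdgfra, the growth factor receptor that marks precursors, had a log2 difference of -0.12 (adjusted p = 0.105, limma). Bcas1, which is known from early myelinating cells, fell by 0.74. Of the other glial and vascular lists, no astrocyte gene of 13, no microglial gene of 12 and no endothelial gene of 12 was called. At an unadjusted p below 0.05 there were 2, 4 and 0 of them, against 19.6% of all genes. The medians of these lists were -0.021, -0.11 and -0.0083. The 10 general neuron genes had a median of -0.0023, with none called and 1 at the unadjusted level.

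**Figure D2:**
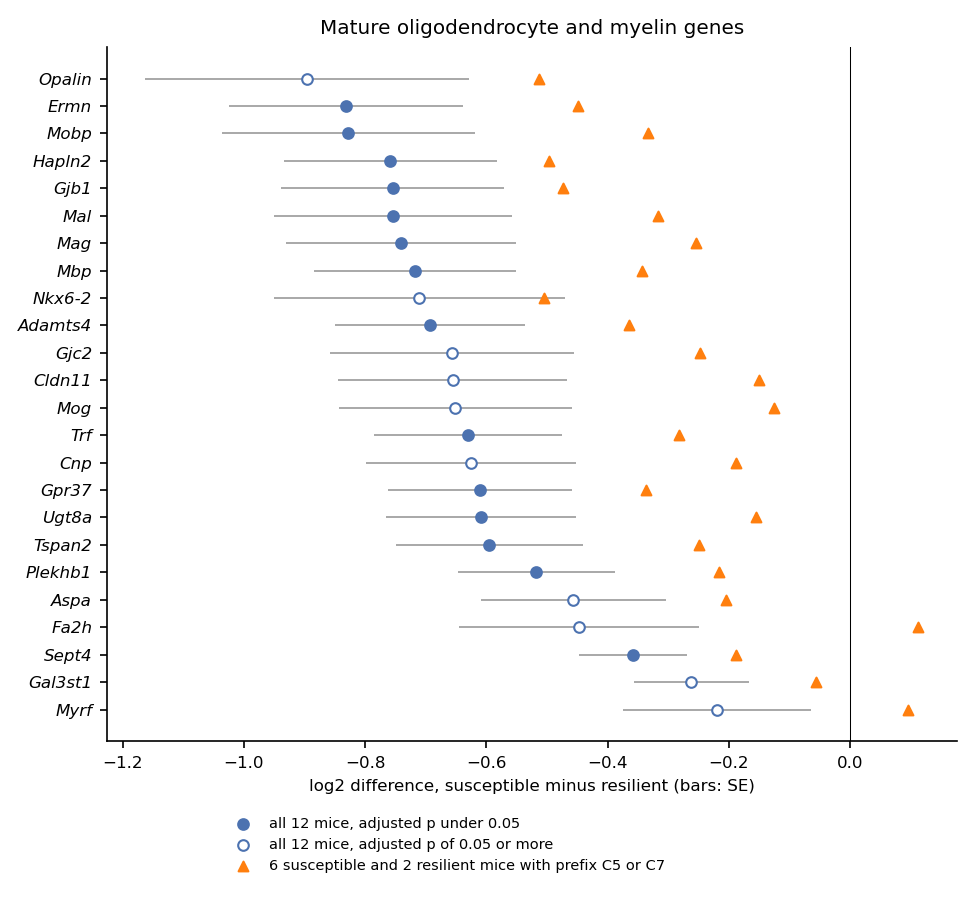
Log2 difference between susceptible and resilient mice (x axis) for 24 of the 25 genes of the mature oligodendrocyte and myelin list, with bars for the SE. Filled circles are the 14 called genes among them and open circles the rest. Triangles give the difference within prefixes C5 and C7 (6 susceptible and 2 resilient mice). Over the whole list the median there was -0.25 instead of -0.65, and 23 of 25 lay below 0.

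The oligodendrocyte genes followed the mouse ID prefix as well as the phenotype. Averaged over the 25 genes, susceptible mice had a level of 4.68 ± 0.21 log2 CPM (SD, n = 6). Resilient mice had 5.31 ± 0.30 log2 CPM (SD, n = 6), and unstressed controls 5.33 ± 0.34 log2 CPM (SD, n = 6). The resilient mice fell into separate parts, with the 4 mice of C1 and C2 at 5.31-5.65 and the 2 mice of C5 at 4.94, below every C1 and C2 resilient mouse. The susceptible C5 mouse lay at 4.97, slightly above both. Within C5 the median log2 difference of the list was 0.025, with 10 of 25 genes below 0, and with 1 mouse against 2 it was not tested. The susceptible C7 mice lay at 4.41-4.82, and the only control of C7, which had not been stressed, at 4.82, whereas the 5 controls of C1 and C2 lay at 5.01-5.67. With C5 and C7 against C1 and C2 as a covariate, a split chosen after the values were seen, the list's median moved from -0.65 to -0.25, with none called and 2 of 25 at the unadjusted level (limma). With all prefixes as the covariate the median was -0.060, with none called and 0 of 25 at the unadjusted level. Phenotype and prefix cannot be told apart for these genes.

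All 13 genes of the striatal medium spiny neuron list had log2 differences below 0, with a median of -0.57. None was called, and 6 were lower at the unadjusted level, against 10.4% of all genes. With the C5 and C7 covariate the median was -0.041 and within C5 and C7 it was -0.046, with 0 genes at the unadjusted level in either fit. Drd2, the dopamine receptor of indirect pathway neurons, named after its values were seen, lay at -1.46, -0.999 and 0.20 log2 CPM in susceptible and -1.01, 0.65 and 2.31 log2 CPM in resilient mice, with wide overlap. Averaged over the list, the 3 resilient mice with C2 and the C2 controls were the highest, whereas resilient replicate 1 and a control, both C1, lay among the susceptible mice. The C5 resilient mice (3.59 and 3.84 log2 CPM) and the C7 control (3.67) also lay in or near the susceptible range of 3.44-3.80. The part of dissection borders in the myelin difference was not tested.

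**Figure D3:**
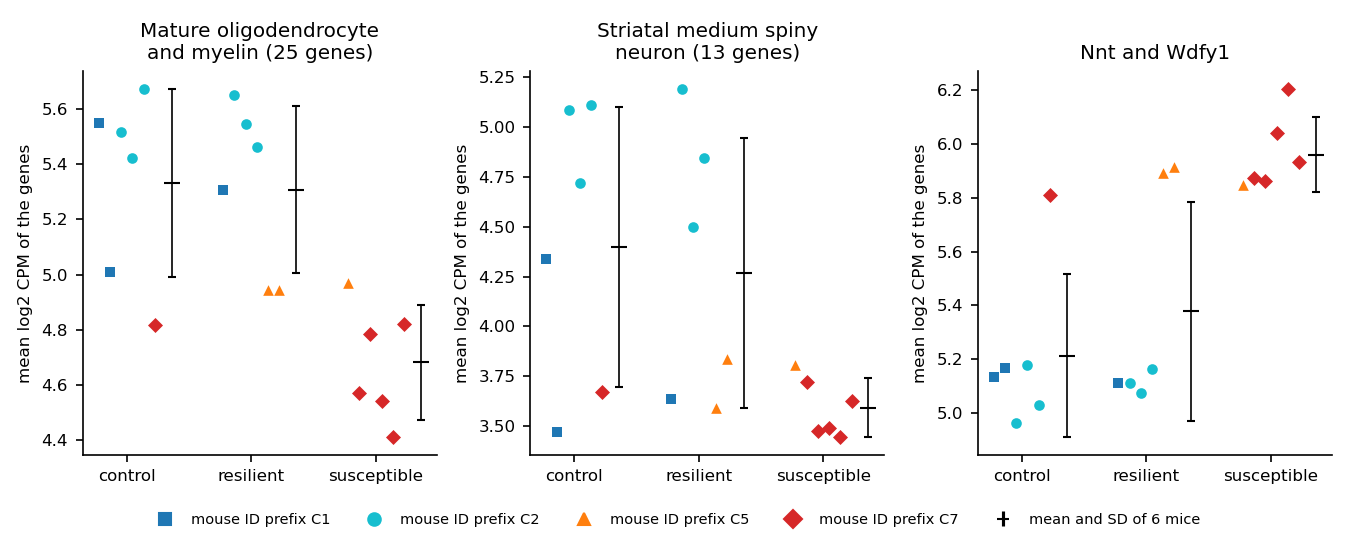
Mean log2 CPM of the genes of each list (y axis) in each of 18 B6 mice, by group (x axis). Colour and shape give the mouse ID prefix, and the bars the mean and SD of 6 mice. In the oligodendrocyte panel the C5 resilient mice (4.94) and the C7 control (4.82) sit beside the susceptible mice, and in the panel of Nnt and Wdfy1 all 9 mice of C5 and C7 lie above all 9 mice of C1 and C2.

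A small set of genes divided the mice by prefix alone. Nnt encodes the mitochondrial nicotinamide nucleotide transhydrogenase, of which the C57BL/6J substrain is known to carry a deletion, and Wdfy1 is also known to differ between C57BL/6 substrains. Wdfy1 lay at 6.02, 6.17 and 6.48 log2 CPM in susceptible and at 5.04, 5.13 and 6.18 log2 CPM in resilient mice, and rose by 0.76 (SE 0.18, adjusted p = 0.0306, limma). The resilient values fell into separate parts, with the 2 C5 mice at 6.09 and 6.18, as high as the susceptible mice. Nnt rose by 0.41 (SE 0.10, adjusted p = 0.0378, limma), and its C5 resilient mice, at 5.65 and 5.69 log2 CPM, again lay among the susceptible ones. The C7 control lay at 5.98 for Wdfy1 and 5.63 for Nnt, above all other controls. Within C5 and C7 the log2 differences were 0.067 for Wdfy1 and 0.049 for Nnt.

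Over the 18 B6 mice, 94 genes (0.496% of those tested) had no overlap between the 9 mice of C5 or C7 and the 9 mice of C1 or C2, and 31 of these were among the 383 called genes. They included Gm15446, a predicted zinc finger gene (5.02-5.88 log2 CPM in C1 and C2, 1.32-2.81 in C5 and C7), Cd59a, an inhibitor of complement (2.55-3.201 and 3.71-4.204), and the pseudogene Tmem181b-ps (4.61-5.02 and 5.83-6.385). Cd59a was named after its values were seen. Gabra2, a GABA receptor subunit known to be expressed at a lower level in C57BL/6J than in other C57BL/6 mice, lay at 6.28-6.64 in C1 and C2 and at 7.06-7.31 in C5 and C7, and was likewise named after its values were seen. In the fit, 30 genes (0.158%) passed for the prefix term, 14 of them among the 383. Members of the oligodendrocyte list were also among the 94 genes, for example Mag and Ugt8a. For Tmem181b-ps the susceptible minus resilient difference changed from 0.74 to -0.0089 with the C5 and C7 covariate. Gm15446 and Tmem181b-ps have close relatives in the genome, so that their counts are uncertain. The labels give all 18 mice as C57BL/6Crl, and the study's methods name the strain C57BL/6NCrl, a substrain of the N line. The genotype of the mice was not measured, and its part in the differences was not tested.

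**Figure D4:**
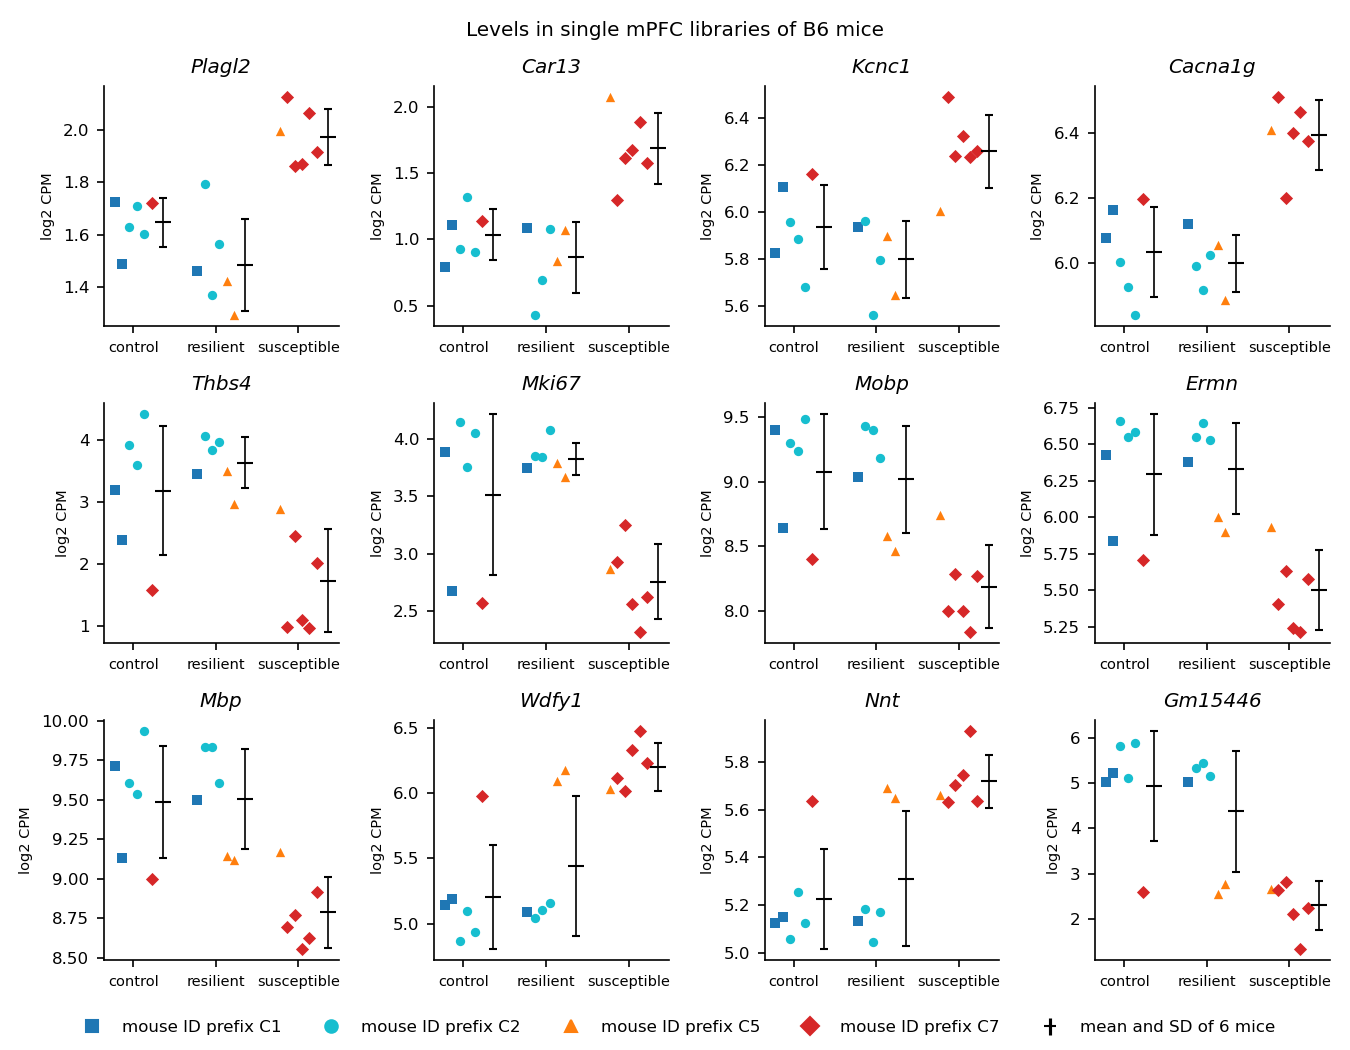
Level (log2 CPM, y axis) of 12 genes in each of 18 B6 mice by group (x axis), with colour and shape for the mouse ID prefix and bars for the mean and SD of 6 mice. In Plagl2, Car13, Kcnc1 and Cacna1g all susceptible mice lie above all resilient mice. Plagl2 and Car13 were named from called genes without overlap, so that for them this follows from the choice. Kcnc1 and Cacna1g were called in the same mice. In Wdfy1, Nnt and Gm15446 the C5 resilient mice and the C7 control lie with the susceptible mice.

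For some other called genes the difference was of about the same size within C5 and C7, although no gene passed the test there (smallest adjusted p 0.0720, limma, 1337 genes at the unadjusted level). That fit set 6 susceptible mice, 5 of C7 and 1 of C5, against 2 resilient mice, both of C5. Phenotype and prefix were thus still confounded in it. These mice were among those whose contrast had chosen the genes. The differences within C5 and C7, and among the C5 mice alone, are therefore a description, here and below. Plagl2, a zinc finger transcription factor (chromosome 2, 153227759-153241426, GRCm38), had the smallest p of the higher genes. It lay at 1.86, 1.95 and 2.12 log2 CPM in susceptible and 1.29, 1.44 and 1.79 log2 CPM in resilient mice, without overlap. The C5 susceptible mouse had 1.99 log2 CPM against 1.29 and 1.43 in the C5 resilient mice, and controls lay at 1.49-1.72. The log2 difference was 0.49 (SE 0.076, adjusted p = 0.00562, limma), and 0.61 within C5 and C7 (adjusted p = 0.0720, limma). Over 23 alternatives it ranged from 0.45 to 0.61, with the adjusted p under 0.05 in 18 of them and between 0.000500 and 0.511.

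Car13, a cytosolic carbonic anhydrase (chromosome 3, 14641727-14663002), lay at 1.297, 1.64 and 2.08 log2 CPM in susceptible and 0.42, 0.95 and 1.09 log2 CPM in resilient mice, without overlap. It rose by 0.82 (SE 0.14, adjusted p = 0.0213, limma), and its difference within C5 and C7 was 0.73 (adjusted p = 0.620, limma). The C5 susceptible mouse was the highest of all 12 mice, at 2.08 log2 CPM. Ahnak2, a giant scaffold protein, rose by 0.66, Setd1b, a histone H3 lysine 4 methyltransferase, by 0.75 and Serping1, the C1 esterase inhibitor, by 0.61, in each case without overlap. The RNAs 9430064I24Rik (0.73), 1700094M23Rik (0.72) and Gm12941 (0.71) were higher without overlap too. Over the alternatives the lowest log2 differences were 0.61 for Ahnak2, 0.31 for Setd1b and 0.39 for Serping1. They were 0.29 for 9430064I24Rik, 0.60 for 1700094M23Rik and 0.29 for Gm12941. The C7 control lay above the C5 susceptible mouse for Setd1b, 9430064I24Rik and Gm12941, and below it for Ahnak2, Serping1 and 1700094M23Rik.

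Kcnc1 encodes a Kv3 potassium channel, of the kind that lets neurons repolarize fast enough to fire at high rates. Kcnc1 (chromosome 7, 46396497-46438704) lay at 6.01, 6.25 and 6.49 log2 CPM in susceptible and 5.56, 5.85 and 5.96 log2 CPM in resilient mice, and rose by 0.46 (SE 0.096, adjusted p = 0.0304, limma). Its groups did not overlap, but the C7 control, at 6.16 log2 CPM, lay within the susceptible range. Of 20 voltage-gated potassium channel genes, 2 rose (background of higher genes 0.845%) and none fell, the median was 0.071, and 4 were higher at the unadjusted level. Within C5 and C7 the log2 difference of Kcnc1 was 0.49, which did not pass the test (adjusted p = 0.620, limma).

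Cacna1g encodes a low-voltage-activated, T-type calcium channel, and lay at 6.20, 6.402 and 6.51 log2 CPM in susceptible against 5.89, 6.01 and 6.12 log2 CPM in resilient mice. It rose by 0.39 (SE 0.074, adjusted p = 0.0220, limma), its groups did not overlap, and its difference was 0.42 within C5 and C7. That difference did not pass the test, and the C7 control, at 6.197 log2 CPM, lay near the lowest susceptible mouse. Cacna1i, another T-type channel, named after its value was seen, rose by 0.45 (SE 0.11, adjusted p = 0.0362, limma). Grin2d, an NMDA receptor subunit of interneurons, was the only called member of 26 glutamate and GABA receptor subunits (background of higher genes 0.845%). It rose by 0.54 (SE 0.13, adjusted p = 0.0306, limma), and the list median was 0.024. Nrxn2, a presynaptic adhesion protein, rose by 0.43, and Met, the receptor of hepatocyte growth factor in cortical projection neurons, by 0.60. Neb, a giant actin-binding protein known from muscle, rose by 0.60. The C5 susceptible mouse, however, lay at 4.41 log2 CPM for Neb, below both C5 resilient mice (4.42 and 4.49). Over the alternatives the log2 difference went as low as 0.28 for Nrxn2, 0.12 for Met and 0.27 for Neb. The C7 control lay above the C5 susceptible mouse for Met and Neb, and below it for Nrxn2. Of the 16 interneuron genes and the 15 cortical layer genes none was called, and the medians were 0.11 and 0.020. At the unadjusted level were 4 and 6 of them, against 19.6% of all genes. Gad1, which makes GABA, had a log2 difference of 0.39 (adjusted p = 0.352, limma).

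The promoters of Kcnc1 and of Ermn are shown as examples of a higher and a lower gene whose base composition differed. The sequences are the 250 bases before the RefSeq start site, 5' to 3', GRCm38.p6, and capitals mark GGGCGG on either strand, the GC box.
Kcnc1 (chr7:46396218-46396467, plus strand): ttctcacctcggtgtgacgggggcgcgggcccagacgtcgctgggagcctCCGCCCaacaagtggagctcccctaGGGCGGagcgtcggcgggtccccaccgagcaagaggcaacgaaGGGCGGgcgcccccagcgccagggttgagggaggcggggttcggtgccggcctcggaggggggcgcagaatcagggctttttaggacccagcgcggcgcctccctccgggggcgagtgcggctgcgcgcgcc
Ermn (chr2:58052865-58053114, minus strand): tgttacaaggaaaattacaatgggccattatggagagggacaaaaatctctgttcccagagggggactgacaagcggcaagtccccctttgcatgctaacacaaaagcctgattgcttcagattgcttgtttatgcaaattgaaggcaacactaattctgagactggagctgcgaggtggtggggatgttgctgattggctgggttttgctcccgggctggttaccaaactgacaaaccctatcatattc
The Kcnc1 window held 74.4% G and C and 3 matches, and the Ermn window 47.2% and 0 matches. Of 15117 such windows of the genes tested, 54.6% held a match, and the median G and C share was 59.6%. The windows of called higher and called lower genes had medians of 61.2% and 53.6%, so that these examples lie farther apart than the sets. A match was held by 57.7% and 47.3% of those windows. Only 11804 of 18946 genes had a window, and the shares over gene sets were not tested.

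Across transcripts, the called genes differed in base composition. The longest annotated transcript had a median G and C share of 51.4% for the 160 higher genes, 44.1% for the 223 lower genes (221 with a sequence) and 48.4% for all genes. In the quintile of genes with the lowest share, 92 were called lower and 21 higher. In the quintile with the highest share, 18 were called lower and 58 higher. The median log2 difference went from -0.033 in the lowest quintile to 0.035 in the highest. The gap between these quintiles, taken in each library as the deviation from the mean of the 12 mice, was -0.034 to 0.097 in susceptible and -0.11 to 0.044 in resilient mice, with overlap. The 15 called oligodendrocyte genes had a median of 51.0%, above that of all genes. The higher genes were also longer, with a median of 4434.5 bases against 3001 for all genes and 2814 for the lower genes. The part of base composition and length in the calls was not tested.

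Mki67, the marker of cycling cells, lay at 2.31, 2.74 and 3.25 log2 CPM in susceptible and 3.67, 3.82 and 4.08 log2 CPM in resilient mice, without overlap. It fell by 1.07 on the log2 scale (SE 0.29, adjusted p = 0.0469, limma), that is to 0.475 of the resilient level. Kif11, a spindle motor named after its value was seen, fell by 0.48. Anln, an actin-binding protein of dividing cells and also of oligodendrocytes, fell by 0.74. Of 40 replication-dependent histone genes, 3 fell (Hist1h2af, Hist1h1b and Hist1h4m) and none rose (background of lower genes 1.177%), and the median was -0.12. Hist1h2af fell by 1.71, but lay at or below 1.02 log2 CPM in every one of the 12 libraries. Hist1h4m followed the prefix, with a difference of -0.045 within C5 and C7. Histone genes are near-identical copies, so that single members are uncertain. Mki67 was also low in the C7 control (2.57 log2 CPM). Over the alternatives its log2 difference lay between -1.17 and -0.43.

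Thbs4, an extracellular matrix protein made by astrocytes, lay at 0.96, 1.56 and 2.89 log2 CPM in susceptible and 2.97, 3.67 and 4.07 log2 CPM in resilient mice. It fell by 1.90 (SE 0.51, adjusted p = 0.0469, limma), to 0.268 of the resilient level, and the groups came close but did not overlap. The C7 control, at 1.59 log2 CPM, was the lowest of the 6 controls. Over the alternatives the log2 difference of Thbs4 lay between -2.13 and -0.31, with the adjusted p under 0.05 in 9 of 23 (limma). The RNAs Gm13293, Gm45426 and Gm5739 fell by 0.98, 0.96 and 0.66 without overlap, which was the rule that named them. Over the alternatives their log2 differences went as high as -0.21, -0.37 and -0.58. In the C5 mice Gm13293 lay at 0.67-0.94 and Gm5739 at 0.024-0.56 log2 CPM, which are low levels.

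The largest difference of all was in mt-Nd3, which encodes a subunit of respiratory complex I on the mitochondrial genome. It lay at -4.97, -3.37 and -2.94 log2 CPM in susceptible and -2.36, 2.131 and 3.52 log2 CPM in resilient mice, with a log2 difference of -4.87 (SE 0.74, adjusted p = 0.00562, limma). Gm28438, a nuclear pseudogene on chromosome 1 (24612775-24613119), named after its value was seen, went the opposite way with 3.56 (SE 0.97, adjusted p = 0.0486, limma). In the annotation, 312 of the 318 stretches of 31 bases in mt-Nd3 also occur in Gm28438, so that reads of the pair could be counted for either, and neither value is certain. Both genes divided the 18 mice by prefix without overlap. The other 7 mitochondrial protein genes of the table lay below 0 as well, none of them called, with 5 at the unadjusted level. For example, mt-Co1 had a log2 difference of -0.13 and mt-Nd1 of -0.32 (adjusted p = 0.570 and 0.0613, limma). Of 80 nuclear genes of the respiratory chain, 3 fell (Ndufv2 by 0.18, Ndufc2 by 0.18 and Cox6a2 by 0.72) and none rose. The background of lower genes was 1.177%, and the median of the list was -0.041.

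Genes of the vascular and meningeal wall went in both directions. Of 11 meningeal and pericyte genes, Igf2, a growth factor of the meninges, and Ogn, a small proteoglycan, rose by 0.60 and 0.63, and Rgs5, the pericyte marker, fell by 0.19 (SE 0.036, adjusted p = 0.0220, limma). The background was 0.845% for higher and 1.177% for lower genes, and the list's median was 0.30. Igf2 lay at 4.03-4.71 in susceptible and 3.21-4.33 log2 CPM in resilient mice, and Rgs5 at 7.03-7.18 and 7.172-7.40 log2 CPM, both with overlap. Averaged over the list, susceptible replicate 4 was the highest of the 18 mice.

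Stress hormone and activity genes showed few calls. Per1, a clock gene that glucocorticoids also induce, lay at 4.72, 4.92 and 5.04 log2 CPM in susceptible and 4.27, 4.51 and 4.64 log2 CPM in resilient mice. It rose by 0.44 (SE 0.10, adjusted p = 0.0306, limma) without overlap, and its difference within C5 and C7 was 0.43 (adjusted p = 0.620, limma). The C7 control, at 4.89 log2 CPM, lay within the susceptible range. Per1 was the only called gene of 20 glucocorticoid receptor and induced genes, whose median was -0.12, and of 16 clock genes, whose median was 0.13. The background of higher genes was 0.845%. Fkbp5, the co-chaperone of the glucocorticoid receptor, named after its value was seen, had a log2 difference of 0.34 (adjusted p = 0.0747, limma), and Nr3c1, the receptor itself, of -0.18 (adjusted p = 0.149, limma). Of 18 immediate early genes none was called, 6 were higher (9.24% of all genes) and none lower at the unadjusted level, and the median was 0.32. Fos lay at 4.46, 4.66 and 5.08 log2 CPM in susceptible and 3.37, 4.29 and 4.596 log2 CPM in resilient mice, with controls at 4.36-4.95 and a log2 difference of 0.64 (adjusted p = 0.161, limma). Fos thus overlapped between the phenotypes, and the controls lay nearer the susceptible mice.

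Of 19 heat shock genes, Cryab, a small heat shock protein that oligodendrocytes also make, fell by 0.51 (SE 0.12, adjusted p = 0.0314, limma). The background of lower genes was 1.177%, none of the list rose, and its median was -0.12. Of 56 clustered protocadherin genes, which give neurons their surface identity and share long stretches of sequence, only Pcdhb3 was called, with a rise of 0.35. The background of higher genes was 0.845%, 52 of the list had differences above 0 and the median was 0.083. No gene was called in the neurotrophin (6 genes), sterol synthesis (18), interferon (14), antigen presentation (15), serotonin and dopamine receptor (15) and neuropeptide (11) lists, with 0, 5, 4, 2, 4 and 3 at the unadjusted level. The same held for cytosolic ribosomal proteins (80 genes), mitochondrial ribosomal proteins (73), small nucleolar and nuclear RNAs (77), matrix and perineuronal net genes (12), thalamic neurons (10), blood (6) and choroid plexus (8), with 8, 12, 10, 1, 2, 0 and 2. Over all genes, 19.6% were at the unadjusted level. Bdnf had a log2 difference of -0.16 (adjusted p = 0.620, limma). The 10 olfactory bulb genes all had differences above 0, with a median of 1.26, and none was called or passed the unadjusted level.

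**Figure D5:**
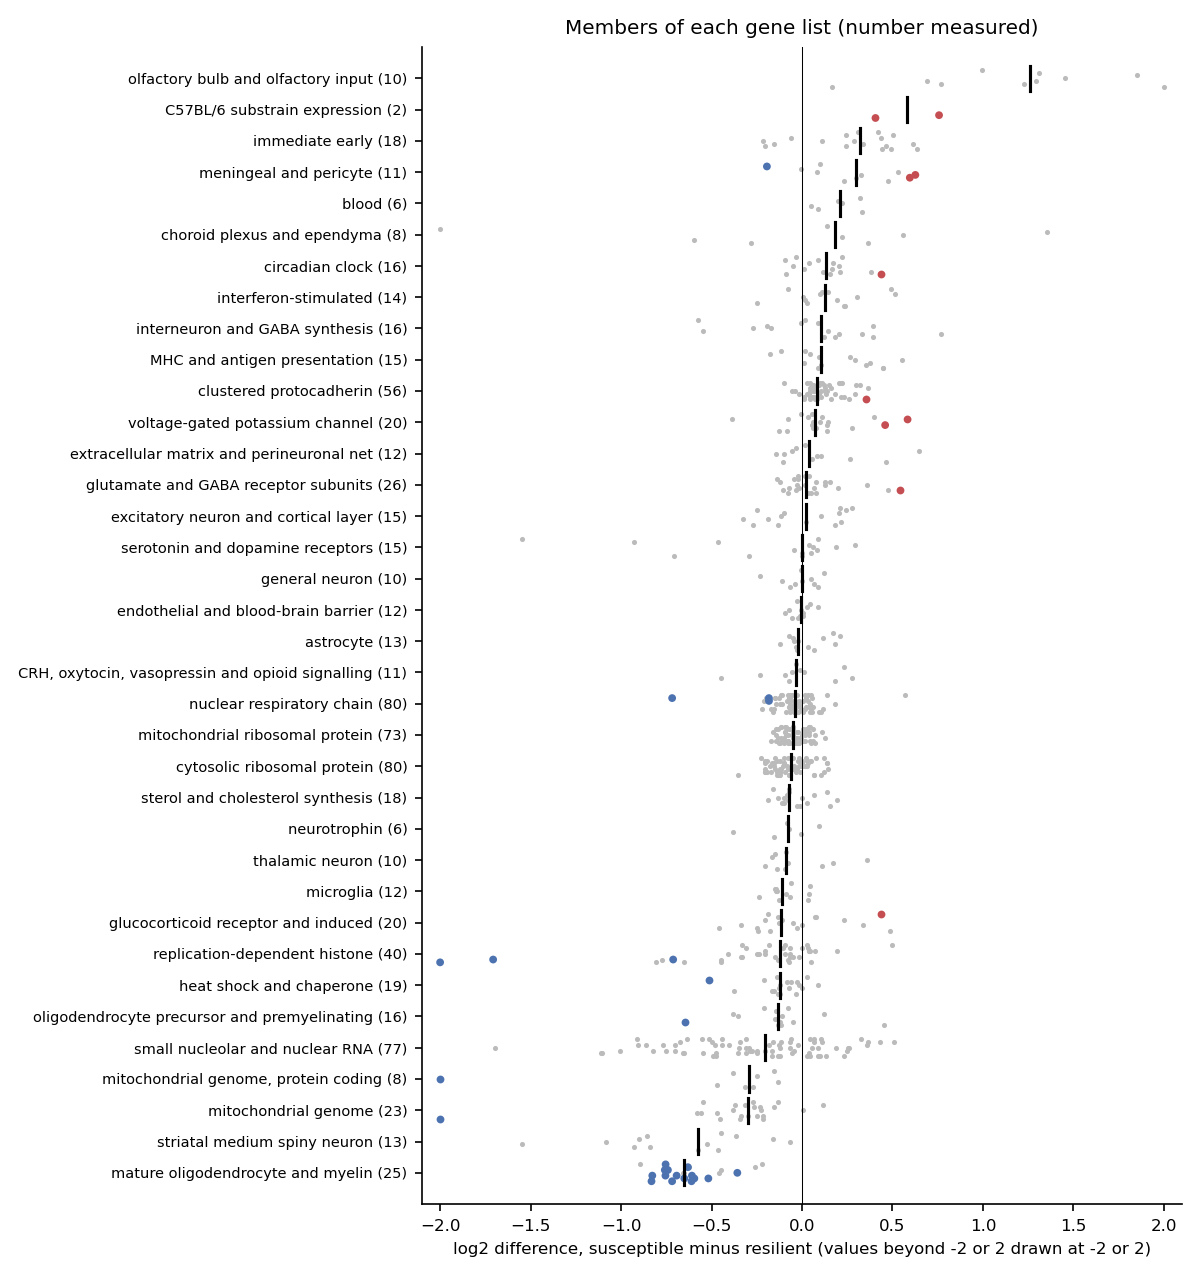
Log2 difference between susceptible and resilient mice (x axis) for each member of 36 gene lists (rows, with the number measured). Red and blue points are called higher and lower, grey points were not called, and the black bar is the list's median. The mature oligodendrocyte list has 15 called genes and a median of -0.65, whereas the general neuron and the cortical layer lists have medians of -0.0023 and 0.020.

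For most called genes the mean of the unstressed controls lay nearer the resilient than the susceptible mean. This held for 144 of the 160 higher and 207 of the 223 lower genes. The genes were called because the resilient and susceptible means differed, and the same count over all genes is not given here. Of the controls 5 of 6 and of the resilient mice 4 of 6 had C1 or C2, while all 6 susceptible mice had C5 or C7. Phenotype and prefix thus cannot be told apart in this nearness. Mouse by mouse, the share of the 383 genes at which a control was nearer the susceptible mean was 7.31% to 42.0% for the 5 controls of C1 and C2 and 56.9% for the C7 control. In susceptible mice this share was 72.1% for the C5 mouse and 86.7% to 96.6% for the C7 mice, and in resilient mice 18.02% and 29.0% for the C5 mice and 2.09% to 7.05% for the others. The same mice chose the genes, so that the latter shares are a description. With the C5 and C7 covariate, 381 of the 383 log2 differences kept their sign at a median of 0.763 of their size, 292 had an unadjusted p below 0.05, and none passed the adjusted threshold (limma). Over all genes, 1477 of 18946 were at the unadjusted level in that fit. The 383 genes had been chosen by the same contrast in the same mice, so that these counts are a description too.

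In other regions the same phenotypes were compared in partly or wholly different mice. The ventral hippocampus (3 susceptible and 8 resilient B6 mice, 2 of the resilient mice shared with the mPFC) had 5404 of 19559 genes called (27.6%, limma). With the library set as a covariate none was called and 4685 were at the unadjusted level, and without susceptible replicate 1, 2 or 3 there were 2843, 1495 and 2891 calls. In the first fit, 17 of the 25 oligodendrocyte genes fell and none rose, with a median of -0.42, but with that covariate none was called and 15 were lower at the unadjusted level (limma). In the bed nucleus of the stria terminalis (5 and 5 mice, none shared) all 25 genes lay above 0, with a median of 0.59. None of them was called by edgeR or DESeq2, and 7 were higher at the unadjusted level with either tool. In that region edgeR called 1 gene of 17515 (0.00571%), Muc16, named after its value was seen, with 1323 genes at the unadjusted level, and DESeq2 called 42. The regions were normalized apart and the difference between them was not tested.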

How the data were processed

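RNA-seq was measured in 88 libraries, and the 12 compared here came from the mPFC of 6 susceptible and 6 resilient B6 mice. The authors depleted ribosomal RNA, prepared ScriptSeq libraries, trimmed reads, removed PCR duplicates, aligned to GRCm38 with STAR and counted reads on gene exons with HTSeq. Per the authors, low genes were dropped, and voom and then ComBat, which removes differences between library sets, gave the log2 CPM of the deposited mPFC and vHPC tables. The deposited BNST table holds counts. The groups given to ComBat are not given in the sources used here. The mPFC table holds no counts, so the counting error of a value is not known, and genes under 1 CPM rest on few reads. Symbols, biotypes and positions came from GENCODE M21.

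Deposited values were fitted with limma 3.58.1 (R 4.3.3, robust empirical Bayes) over all 32 mPFC libraries with a mean per group of strain and phenotype, and susceptible minus resilient B6 mice was the contrast. The vHPC was fitted alike. BNST counts of genes with 1 CPM or more in 6 or more libraries went into edgeR 4.0.16 (TMM, robust quasi-likelihood), with DESeq2 1.42.0 as an alternative. Tests were two-sided, with Benjamini-Hochberg adjustment over all genes and a threshold of 0.05. The code was also run on simulated data with independent genes, no prefix effect and larger differences than most of those called. Error rates in the real data are not known from that run. SDs and SEs are on the log2 scale.

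The comparison, the 36 gene lists and the tests were chosen with earlier results of these data known. Named genes were the 8 highest and 8 lowest by -log10(p)*logFC among called genes without overlap, the same among called genes with a mean of at least 4 log2 CPM, and in each list the first 2 members (in lists made from symbol patterns, the 2 with the highest mean) and up to 6 called ones. Library sets and mouse IDs came from the study's sample list. Alternatives were other samples, moderation, normalization, weights, filters, library set or prefix as covariates, and each mouse left out. Both fits that use C5 and C7 were added after the data were seen. Some genes that meet the rule are not reported here.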

Additional observations from a re-analysis of the deposited data

Results flagged for a closer look

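In the 50 named genes that were called, each group of 6 mice was checked for a single mouse far from the others, 100 groups in all, by the gap to the nearest mouse relative to the range (Dixon, 95% level). For normal values of unselected genes, chance gives about 1 in 20 such flags, and 2 were found. These genes were chosen by their calls, some of them for having no overlap, so that this rate need not hold for them. For Tmem181b-ps, susceptible replicate 5 had 6.385 log2 CPM and the next mouse 5.97. For Ogn, susceptible replicate 2 had 3.46 log2 CPM and the next mouse 4.169.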

How the results depend on the processing

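The count of mPFC calls, 383 as reported, was 387 without the robust option, 462 of 15740 genes with a mean of at least 1 log2 CPM, 26 in the 12 mice alone, 0 in the 18 B6 mice, 531 with a trend, 543 after quantile normalization, 973 with weights per library, 2 with the library set as a covariate (mt-Nd3 and Plagl2), and 0 with the mouse ID prefix, with C5 and C7 against C1 and C2, or within C5 and C7, where 865, 1477 and 1337 genes had an unadjusted p below 0.05 (limma). Leaving out each mouse gave 4 to 839 calls. A called gene passed in 3 to 18 of 23 alternatives. The 15 calls in the oligodendrocyte list became 0 in the 12 mice, in the 18 B6 mice, with the library set, with either prefix covariate and within C5 and C7 (24, 24, 23, 0, 2 and 1 genes at the unadjusted level), and 0 to 20 when a mouse was left out. They were 15, 16, 16, 15 and 21 without the robust option, with a trend, with the filter, with quantile normalization and with weights. Its median stayed below 0 in all of these. For Tmem181b-ps the difference turned to -0.069 and -0.0089 with the prefix covariates. In the BNST, DESeq2 called 42 genes against 1 by edgeR, and leaving out a mouse gave 0 to 9. In the vHPC the library set as a covariate left 0 of 5404 calls (4685 at the unadjusted level), and leaving out a mouse gave 1495 to 7161. The causes were not tested. No paired analysis was possible because no mouse was sampled in both groups, and replicate numbers merely follow sample order.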

Other observations

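Within the library preparation sets, each of which held 1 or 2 mice of either phenotype, the median log2 difference of the 25 oligodendrocyte genes was -0.88 in set 1, -1.20 in set 2, -0.19 in set 3 and -0.18 in set 4. The resilient mice of sets 1 and 2 had prefixes C1 and C2 and those of sets 3 and 4 had C5. Among the C2 mice, 3 controls minus 3 resilient mice gave a median of -0.011 for the same genes. Among the C7 mice, 5 susceptible mice minus 1 control gave -0.18, with 24 of 25 genes below 0. These differences were not tested.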
